A study of Mus musculus with 25 samples.

Results

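The comparison described here is that of a NAMPT vector with an empty vector in the livers of Western diet-fed mice labelled SIRT1 LKO. Its members were chosen by label alone: 5 libraries labelled SIRT1 LKO with AAV8-NAMPT (the LKO NAMPT libraries) and 5 labelled SIRT1 LKO with AAV8-EV (the LKO EV libraries), 10 of the 25 liver RNA-seq libraries of the series. The series asked how far hepatocyte SIRT1 is needed for what NAMPT does to liver gene expression. The other libraries came from Western diet-fed WT mice with the NAMPT vector (6) or the empty vector (6) and from chow-fed WT mice. The Western diet-fed WT mice serve below as the comparison in the other genotype. The chow-fed mice enter no comparison, only the gene filter, the scaling and the estimate of the spread.

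All mice were male, on a C57B/6J background and 20 weeks old, and the labels give a study length of 12 weeks. Mice labelled SIRT1 LKO carried 2 Sirt1 LoxP alleles and Albumin-cre, whose promoter is active in hepatocytes, whereas WT littermates carried the same LoxP alleles without Cre, so the Sirt1 alleles were floxed in every group. The AAV8 vectors, with the hepatocyte-directed thyroxine binding globulin promoter, were injected into the tail vein, and every mouse used here received a vector. The treatment text of the labels names SIRT1 as the vector's insert, while the sample names and the series design name NAMPT. The species and sequence of the insert are not given in the sources used here. Nothing in the labels pools animals, and each library is taken as 1 mouse.

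NAMPT makes nicotinamide mononucleotide from nicotinamide, the rate-limiting step of the salvage route to NAD+, which is the main source of NAD+ in most tissues. SIRT1 is a nuclear deacetylase that consumes NAD+ with each reaction, and in liver it is best known for acting on PGC-1alpha, SREBP and NF-kB signalling. FGF21, a hormone secreted by hepatocytes under fasting and stress, is regulated by several of the same transcription factors.

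The 10 libraries held 20987960 to 32937326 counts assigned to genes. Replicates were separate libraries, and no pair agreed within counting noise. LKO NAMPT replicate 3 stood apart, with 12.3% of its counts on mitochondrial genes against 5.31 to 8.07% in the other 9. LKO NAMPT replicates 1 and 3 lay farthest from their own group. They received the lowest quality weights of these 10 (0.571 and 0.410, against 0.969 to 1.91 in the other 8). WT NAMPT replicates 1, 2 and 6, which enter the WT values and the differences between genotypes, received 0.506, 0.401 and 0.336. WT NAMPT replicates 3, 4 and 5 received 1.62, 1.85 and 0.922. Hepatocyte markers were abundant in every library, with a summed level of 62551 to 84633 CPM (counts scaled to library size) with NAMPT and 62859 to 91241 CPM with EV, and none of 8 pancreatic acinar markers was above the filter. All levels below are CPM after TMM scaling, and each fold change is the log2 ratio of LKO NAMPT to LKO EV from limma, with its standard error. The word called is used of an adjusted p of 0.05 or less.

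The labels were checked first on the genes they concern. Sirt1, in counts over all its exons, was at 8.69, 8.09, 11, 10.3 and 11.1 CPM in LKO NAMPT replicates 1 to 5 and at 7.16, 7.22, 8.81, 10.1 and 9.61 CPM in LKO EV replicates 1 to 5. The groups overlapped (difference of 0.19 on the log2 scale, exact two-sided permutation test p = 0.183, 0.274 after adjustment over 3 genes). WT mice had 8.86 ± 0.573 CPM with the empty vector (SD, n = 6), against 8.57 ± 1.34 CPM in LKO EV (n = 5), so whole-gene Sirt1 RNA in the libraries labelled SIRT1 LKO lay within the spread between libraries. A count over all exons need not show the loss of 1 exon, and no count per exon was used here, so every direction below rests on the label.

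Nampt was at 73.6, 83.5, 127, 62.1 and 53.9 CPM with the NAMPT vector and at 46.0, 46.7, 56.5, 75.6 and 55.7 CPM with EV. LKO NAMPT replicates 2 and 3 were above the highest EV library and the other 3 lay within the EV range. The exact permutation test gave a difference of 0.47 (p = 0.0952, 0.274 after adjustment; the smallest p that 5 against 5 allows is 0.00794), and limma 0.41 ± 0.16 (adjusted p = 0.403). Without LKO NAMPT replicate 3 the exact test gave 0.29. In WT liver the change was 0.34 ± 0.16 (adjusted p = 0.144), and the difference between genotypes was 0.08 (adjusted p = 0.868).

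Sequence is shown for the 3 genes that the account of this comparison turns on. Adamtsl2 is the 1 gene called; Hamp and Hamp2, the mouse hepcidin genes, had the largest differences among named genes of iron handling and are paralogs, so that short reads may be split between them where they are alike. For each, the 250 bases upstream of the RefSeq start (GRCm38.p6) run 5′ to 3′ on the gene's own strand, from chr2:27079129-27079378 on the plus strand for Adamtsl2, chr7:30944030-30944279 on the minus strand for Hamp and chr7:30924182-30924431 on the minus strand for Hamp2.
Adamtsl2: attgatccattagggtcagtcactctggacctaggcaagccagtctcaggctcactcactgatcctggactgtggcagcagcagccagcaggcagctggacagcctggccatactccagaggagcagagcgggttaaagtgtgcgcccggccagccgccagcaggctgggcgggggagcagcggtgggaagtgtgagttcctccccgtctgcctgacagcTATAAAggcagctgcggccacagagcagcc
Hamp: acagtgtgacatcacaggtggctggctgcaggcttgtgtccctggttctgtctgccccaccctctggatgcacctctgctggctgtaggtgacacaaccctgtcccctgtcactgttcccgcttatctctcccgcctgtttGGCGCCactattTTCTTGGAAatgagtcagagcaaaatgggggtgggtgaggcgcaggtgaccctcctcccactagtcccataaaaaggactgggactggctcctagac
Hamp2: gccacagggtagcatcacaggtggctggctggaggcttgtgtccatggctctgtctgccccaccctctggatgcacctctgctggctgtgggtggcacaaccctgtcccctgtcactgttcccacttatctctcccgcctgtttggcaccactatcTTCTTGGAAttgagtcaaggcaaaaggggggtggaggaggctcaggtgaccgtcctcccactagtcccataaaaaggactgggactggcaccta
Capitals mark matches, on either strand, to the motifs searched: TATAAA (letters of the TATA box), GGCGCC (the core of the BMP-responsive element described for hepcidin), TTCNNNGAA (a STAT site) and CACGTG (an E-box). Adamtsl2 held TATAAA at position -30. Hamp held GGCGCC at -109 and TTCNNNGAA at -97. Hamp2 held TTCNNNGAA at -94 and these letters of GGCGCC nowhere in the window. No motif overlapped another. Of 32851 upstream windows of the same length, 12.4% held TATAAA, 9.59% GGCGCC, 7.02% TTCNNNGAA and 6.02% CACGTG, so each match is a description of these letters and no more. The Hamp and Hamp2 windows were identical at 227 of 253 aligned columns (89.7%).

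Across 14065 genes above 1 CPM in at least 2 libraries, 1 gene (0.00711%) was called between LKO NAMPT and LKO EV. At an unadjusted p under 0.05, 614 genes (4.37%) were higher and 741 (5.27%) lower with NAMPT, and with upper-quartile scaling that split was 426 higher and 891 lower. In 71 genes (0.505%) all 5 NAMPT libraries were above all 5 EV libraries, and in 91 (0.647%) all 5 were below. Differences were small, with a median absolute log2 fold change of 0.12 in LKO and 0.19 in WT liver, at a median standard error of 0.14 in both. The median over all genes was 0.02 in LKO and 0.00 in WT. LKO NAMPT libraries were less alike (median root mean square log2 difference of 0.490 between pairs) than LKO EV libraries (0.394), and pairs taken across the 2 groups lay between (0.419). The test of the difference between genotypes called 1 gene (0.00711%), with 1557 genes (11.1%) above and 1429 (10.2%) below 0 at an unadjusted p under 0.05. That 1 gene became 676 without LKO NAMPT replicate 1, 33 without LKO EV replicate 4 and 19 without LKO EV replicate 3, and 0 with 2 surrogate variables, edgeR's quasi-likelihood test or no quality weights.

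**Figure D1:**
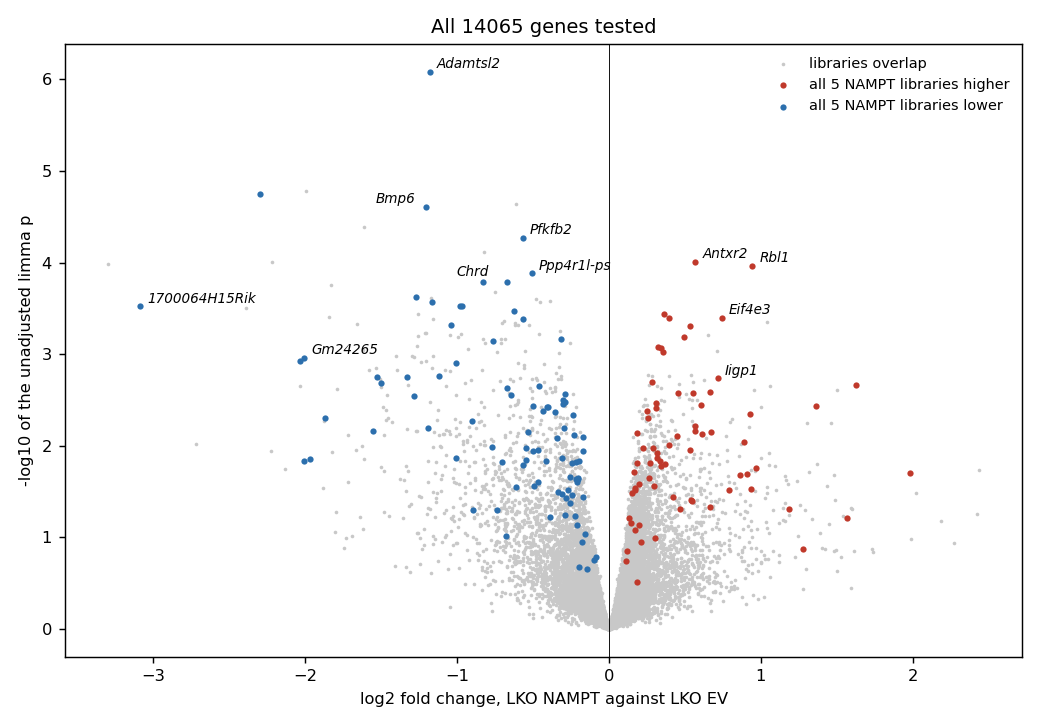
Each point is 1 of 14065 genes, with the log2 fold change of LKO NAMPT against LKO EV on the x axis and -log10 of the unadjusted limma p on the y axis. Red and blue points are the 71 and 91 genes whose 5 NAMPT libraries all lie above or all below the 5 EV libraries; Adamtsl2, at -1.18, is the highest point and the 1 gene called.

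Adamtsl2 (chr2:27079379-27108981, plus strand) encodes a secreted glycoprotein of the ADAMTS-like family that binds fibrillin-1 and latent TGF-beta binding protein and limits the TGF-beta available to cells. It fell with the NAMPT vector in LKO liver, from 6.57 ± 0.759 to 3.49 ± 1.28 CPM (SD, n = 5 each). The LKO NAMPT libraries held 5.51, 2.40, 3.97, 2.58 and 2.99 CPM and the LKO EV libraries 5.71, 7.62, 6.76, 5.95 and 6.80 CPM. No NAMPT library reached the lowest EV library, although LKO NAMPT replicate 1 came close to it. The log2 fold change was -1.18 ± 0.18 (limma adjusted p = 0.0116, a ratio of 0.442), on 61 to 158 counts per library with NAMPT and 142 to 228 with EV. In WT liver the same gene rose from 3.82 ± 0.343 to 6.04 ± 1.74 CPM (n = 6 each, 0.72 ± 0.17, adjusted p = 0.0124), and the difference between the genotypes was -1.90 (adjusted p = 0.000661). That difference was not called with 2 surrogate variables (-1.56, adjusted p = 0.0549), by edgeR's quasi-likelihood test (-1.58, adjusted p = 0.218) or without quality weights (-1.64, adjusted p = 0.133), and DESeq2 gave it no adjusted p. Side by side, Adamtsl2 was at 3.44 to 4.39 CPM in WT EV, 3.77 to 8.63 in WT NAMPT, 5.71 to 7.62 in LKO EV and 2.40 to 5.51 in LKO NAMPT libraries, and both LKO EV and WT EV serve as the reference of 1 comparison each.

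The call in LKO was lost in 12 of 23 alternatives, among them leaving out LKO EV replicate 2 (adjusted p = 0.0571), LKO EV replicate 3 (0.0527), LKO NAMPT replicate 2 (0.319) or LKO NAMPT replicate 5 (0.218), and DESeq2 (0.0758) and edgeR's quasi-likelihood test (0.433). The log2 fold change stayed between -1.29 and -0.91.

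Other matrix and TGF-beta genes were read beside it. A list of ADAMTS-like proteins, fibrillins and latent TGF-beta genes had 32 tested members, of which only Adamtsl2 was called. Adamtsl2 itself enters every count and median of this list. With it, 7 were lower and 0 higher at an unadjusted p under 0.05 (5.27% and 4.37% of all genes), and 25 of 32 had a negative log2 fold change. The list's median was -0.13, against 0.02 over all genes tested, and ran from -0.25 without LKO EV replicate 4 to -0.044 without LKO EV replicate 3. The count of 7 became 3 without LKO NAMPT replicate 2. Ltbp2 and Ltbp4, which encode latent TGF-beta binding proteins, went from 1.15 to 0.665 CPM (-1.01 ± 0.30, adjusted p = 0.25) and from 88.1 to 73.1 CPM (-0.33 ± 0.11, adjusted p = 0.325). Smad7, an inhibitory SMAD induced by TGF-beta and BMP signals, had 17.5, 10.6, 11.9, 22.1 and 14.3 CPM with NAMPT and 16.7, 16.2, 21.7, 28.2 and 27.6 CPM with EV (-0.61 ± 0.21, adjusted p = 0.330). The Smad7 value ran from -0.78 to -0.31 with 1 LKO library left out. Adamtsl4, chosen after its values were seen, was below every EV library in all 5 NAMPT libraries (1.88 to 3.14 against 3.26 to 4.56 CPM, -0.55 ± 0.21, adjusted p = 0.40). In WT liver the same list had a median of 0.41, and 18 of 32 members had a difference between genotypes below 0 at an unadjusted p under 0.05, against 10.2% of all genes. The 18 became 7 to 20 under the alternatives, lowest with 2 surrogate variables.

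No gene of the collagens and their processing enzymes was called. Of 31 members, 2 were lower and 0 higher at an unadjusted p under 0.05, against 5.27% and 4.37% of all genes, with a median of -0.09 in LKO and 0.47 in WT liver, and the 2 became 0 without LKO NAMPT replicate 2. The LKO median ran from -0.21 without LKO EV replicate 4 to 0.0075 without LKO EV replicate 1, and was 0.025 with the quasi-likelihood test. Of the differences between genotypes 16 of 31 were below 0 and 0 above at that p (median -0.56), against 10.2% and 11.1% of all genes. The 16 became 3 with 2 surrogate variables. Timp2, an inhibitor of matrix metalloproteinases, was at 9.67 to 16.8 CPM with NAMPT and 11.9 to 18.4 with EV (-0.38 ± 0.14, adjusted p = 0.361), and Bmp1, the procollagen C-proteinase, at 54.1 to 80.0 and 75.2 to 89.8 CPM (-0.24 ± 0.10, adjusted p = 0.412). Stellate cells are the main source of matrix in liver. Of 10 of their markers 1 was higher and 1 lower at that p, against 4.37% and 5.27% of all genes. In all, 8 had a negative log2 fold change (median -0.12, WT 0.28). A difference between genotypes below 0 at that p was seen in 4, against 10.2% of all genes. Their summed level was 497 to 637 CPM with NAMPT and 545 to 597 CPM with EV. In bulk liver, fewer cells of a type and less RNA per cell cannot be told apart, and the part of stellate cells in these values was not tested.

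**Figure D2:**
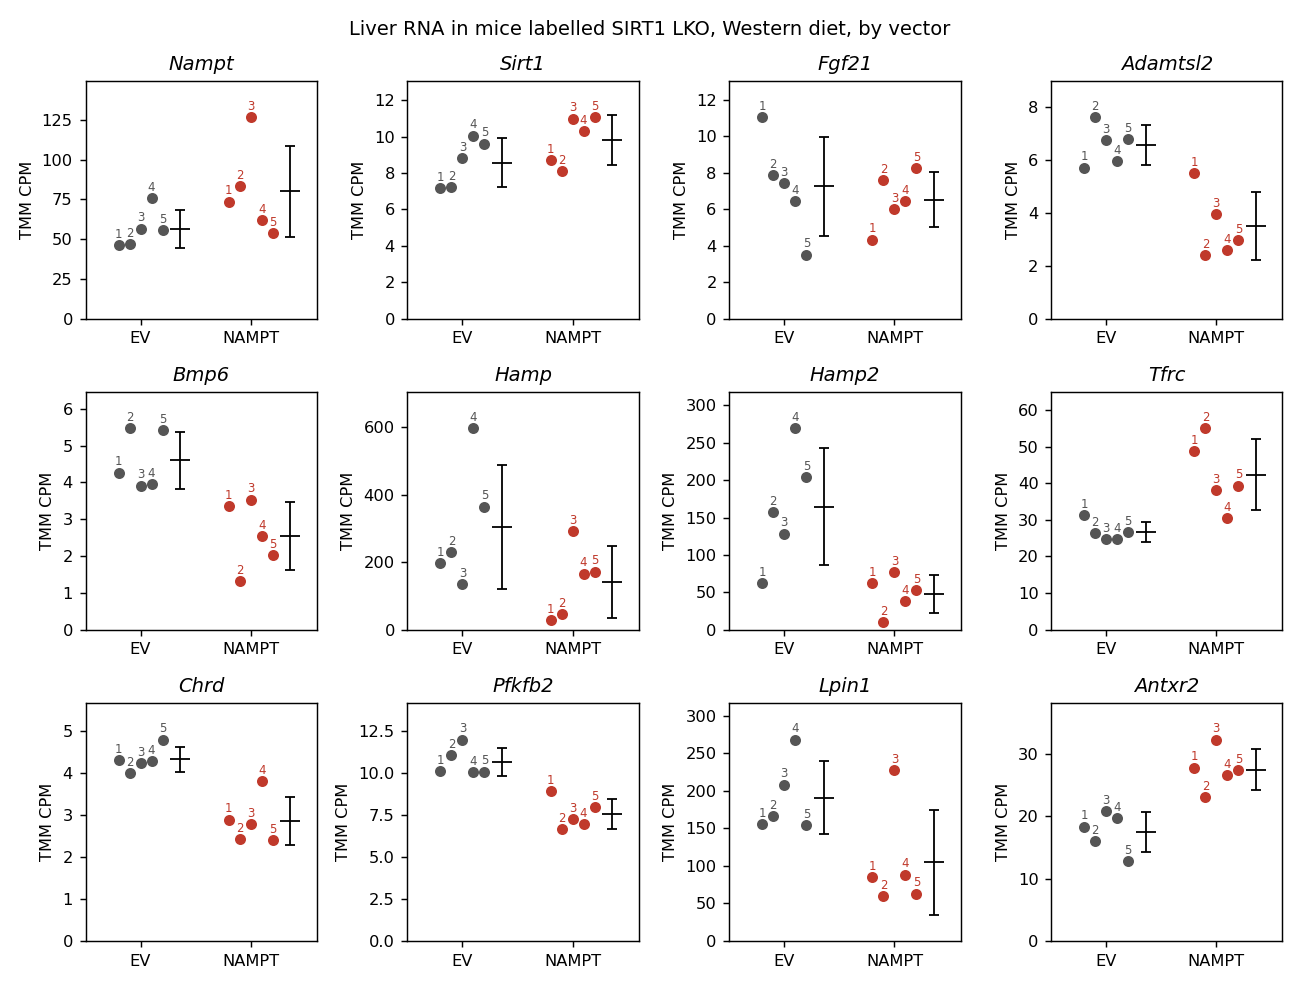
CPM after TMM scaling (y axis, from 0) of 12 genes in the 5 LKO EV (grey) and 5 LKO NAMPT (red) libraries, numbered by replicate, with the mean and SD as a black bar. Adamtsl2, Bmp6, Chrd, Pfkfb2 and Antxr2 do not overlap between vectors, whereas Nampt, Sirt1, Fgf21, Hamp, Hamp2, Tfrc and Lpin1 do.

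No gene of the BMP6 and hepcidin axis was called. BMP6 is made in liver chiefly by sinusoidal endothelial cells and drives transcription of hepcidin in hepatocytes, and hepcidin in turn removes the iron exporter ferroportin from cell surfaces. Bmp6 (chr13:38345716-38499728, plus strand) was at 3.35, 1.32, 3.53, 2.54 and 2.04 CPM with NAMPT and at 4.27, 5.46, 3.92, 3.94 and 5.42 CPM with EV. All 5 NAMPT libraries lay below all 5 EV libraries, but the gene was not called (-1.20 ± 0.23, adjusted p = 0.0691). Without LKO NAMPT replicate 2 it was -0.80 (adjusted p = 0.719), and without LKO NAMPT replicate 1 it was called (adjusted p = 0.0471). The WT value was -0.17 ± 0.20, and the genotypes differed by -1.03 (adjusted p = 0.0895, and 0.0401 without LKO NAMPT replicate 1).

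Hamp2 (chr7:30922372-30924181, minus strand) had 62.3, 10.4, 77.6, 38.8 and 52.6 CPM with NAMPT and 62.7, 158, 129, 269 and 205 CPM with EV (-2.39 ± 0.57, adjusted p = 0.149). The groups met only at LKO EV replicate 1, which lay just above LKO NAMPT replicate 1 and below replicate 3. Hamp (chr7:30942371-30944017, minus strand) was lower on average, with more overlap, at 29.0, 45.5, 291, 166 and 172 CPM against 197, 229, 136, 597 and 365 CPM (-1.48 ± 0.46, adjusted p = 0.277). LKO NAMPT replicate 2 held the lowest Bmp6 and Hamp2 of the 10 libraries, and without it the values were -1.55 for Hamp2 and -0.95 for Hamp. Because the 2 genes are paralogs whose reads may be split, their separate levels are uncertain. In WT liver Hamp2 gave -0.25 ± 0.53 and Hamp 0.23 ± 0.48, and the differences between genotypes were -2.14 (adjusted p = 0.132) and -1.72 (adjusted p = 0.151).

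Tfrc, the transferrin receptor through which cells take up iron, was at 48.8, 54.9, 38.1, 30.5 and 39.3 CPM with NAMPT and 31.4, 26.5, 24.8, 24.7 and 26.6 CPM with EV. Only LKO NAMPT replicate 4 lay within the EV range (0.71 ± 0.19, adjusted p = 0.184, and 0.48 without LKO NAMPT replicate 2). The other readers of BMP signal gave smaller values, with Smad6, an inhibitory SMAD, at -0.33 ± 0.15 and Id1, an immediate BMP target, at -0.68 ± 0.36. Over the whole list of iron, hepcidin and metallothionein genes, 1 of 19 was higher and 4 were lower at an unadjusted p under 0.05 (4.37% and 5.27% of all genes), 0 were called, and the median was -0.06 (0.016 without LKO EV replicate 4). Ferroportin (Slc40a1, 0.18 ± 0.15), the ferritin chains (Fth1, -0.14 ± 0.13, and Ftl1, 0.03 ± 0.14) and transferrin (Trf, 0.12 ± 0.13) all overlapped between vectors. Endothelial markers, as a whole list of 10, had a median of -0.05 (0.015 without LKO NAMPT replicate 5) and a summed level of 436 to 506 CPM with NAMPT and 492 to 542 CPM with EV. Stab1 and Oit3 were lower at an unadjusted p under 0.05 (both -0.28), and their part in the Bmp6 values was not tested.

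Cholangiocyte markers were scarce, and their fitted values were below 0 in the same comparison. All 6 tested markers had a negative log2 fold change, with a median of -1.06, and 4 were lower at an unadjusted p under 0.05, against 5.27% of all genes. Epcam was at 0.465 to 0.921 CPM with NAMPT and 1.08 to 2.37 CPM with EV, with no overlap (-1.12 ± 0.32), and Krt7 at 0.0679 to 1.14 and 0.902 to 1.47 CPM (-1.58 ± 0.44). Sox9, the most abundant of them, had -0.34 ± 0.42 in the weighted fit, although its mean was 5.21 CPM with NAMPT, with 11.1 CPM in replicate 4, and 4.28 CPM with EV, and the summed level of the list was 5.10 to 14.8 CPM with NAMPT and 8.35 to 15.3 CPM with EV. Cftr and Ggt1 were under the filter. What share of bile duct cells each piece of liver held was not tested.

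Among other genes below every EV library, Chrd encodes chordin, a secreted binder of BMPs, and it was at 2.90, 2.43, 2.79, 3.81 and 2.41 CPM with NAMPT and 4.31, 4.01, 4.24, 4.29 and 4.81 CPM with EV (-0.67 ± 0.15, adjusted p = 0.149). Chrd shares 154 exonic bases with Thpo on the other strand. Pfkfb2, which sets fructose 2,6-bisphosphate and so glycolytic flux, went from 10.7 ± 0.860 to 7.57 ± 0.902 CPM (-0.57 ± 0.12, adjusted p = 0.107). Irf2bp2, a repressor partner of IRF2, went from 65.2 to 46.9 CPM (-0.63 ± 0.15, adjusted p = 0.149) and Kmt2b, a histone H3 lysine methyltransferase, from 34.9 to 29.2 CPM (-0.32 ± 0.08, adjusted p = 0.160). Tmem44, a transmembrane protein gene, was at 1.29 to 1.99 CPM with NAMPT and 2.24 to 3.56 CPM with EV (-0.82 ± 0.19, adjusted p = 0.149).

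The widest gap among the named non-overlapping genes was that of 1700064H15Rik, an uncharacterised transcript, at 1.95, 0.756, 0.959, 1.44 and 0.509 CPM with NAMPT and 9.54, 12.4, 4.09, 4.95 and 13 CPM with EV (-3.08 ± 0.73, adjusted p = 0.149). In WT liver it ran from 2.49 to 11.2 CPM with EV and from 0.802 to 10.3 CPM with NAMPT. The pseudogenes Ppp4r1l-ps (-0.51 ± 0.11) and Ldha-ps2 (-0.56 ± 0.14) and the transcript 2810410L24Rik (-0.76 ± 0.20) were also lower, with adjusted p values of 0.141, 0.149 and 0.164. Reads of a pseudogene such as Ldha-ps2 may come from its parent gene. Gm24265, a small nuclear RNA, was at 2.83 to 20.4 CPM with NAMPT and 21.1 to 95.0 CPM with EV (-2.0 ± 0.54, adjusted p = 0.196). Small noncoding RNAs together took 2.11 to 5.71% of the counts with NAMPT and 3.48 to 8.37% with EV, and their share's part in that value was not tested.

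Genes above every EV library led with Antxr2, the receptor for anthrax toxin, which takes up collagen VI. It was at 27.8, 23.1, 32.3, 26.5 and 27.4 CPM with NAMPT and 18.3, 15.9, 20.9, 19.7 and 12.8 CPM with EV (0.57 ± 0.12, adjusted p = 0.127). WT libraries held 21.7 to 31.7 CPM with EV and 27.4 to 30.7 CPM with NAMPT, so it was the LKO EV group that stood lowest of the 4. Eif4e3, a cap-binding protein, went from 3.86 ± 0.623 to 7.16 ± 1.95 CPM (0.74 ± 0.18, adjusted p = 0.149), with WT libraries at 5.41 to 8.20 CPM with EV. It shares 373 exonic bases with Gm20696 on the same strand. DESeq2 called 6 genes (0.0427%), namely 1700064H15Rik, Antxr2, Eif4e3, BC023105, Gm22486 and Tmem44, and did not call Adamtsl2.

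Rbl1, which encodes the pocket protein p107 of the cell cycle, was at 4.0 to 5.88 CPM with NAMPT and 1.83 to 3.23 CPM with EV (0.94 ± 0.21, adjusted p = 0.127). The WT value was like it in sign (0.78 ± 0.19, adjusted p = 0.0128), and the genotypes differed by 0.16 (adjusted p = 0.766). Inpp1, an inositol polyphosphate 1-phosphatase, went from 13 to 16.9 CPM (0.39 ± 0.10). Bzw2, a regulator of translation start, went from 4.48 to 6.77 CPM (0.53 ± 0.13), and the adjusted p of both was 0.149. Other non-overlapping genes by the naming rule were D16Ertd472e (0.50 ± 0.13), Tma7 (0.32 ± 0.08), Zbtb14 (0.34 ± 0.09), Nras (0.36 ± 0.09) and Vwa5a (0.29 ± 0.08), with adjusted p values of 0.160 to 0.234. Of the 162 non-overlapping genes, 135 were protein coding.

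No NAD+ gene was called. Of 15 tested genes of NAD+ synthesis 1, Nampt itself, was higher and 0 lower at an unadjusted p under 0.05, with a median of 0.00. The salvage enzymes that act after NAMPT gave 0.00 ± 0.10 for Nmnat1 and -0.08 ± 0.12 for Nmnat3. Nmrk1, the nicotinamide riboside kinase, was at 21.6, 26.6, 23.2, 9.35 and 13.1 CPM with NAMPT and 10.7 to 18.6 CPM with EV (0.44 ± 0.22, adjusted p = 0.53), so that LKO NAMPT replicates 1 to 3, those with the most Nampt RNA in their group, were above every EV library and replicates 4 and 5 were not. In the list of NAD+-using and nicotinamide-clearing enzymes 1 of 14 was higher, Parp14, an interferon-responsive ADP-ribosyltransferase (43.4 to 73.3 against 33 to 45.5 CPM, 0.41 ± 0.18, adjusted p = 0.481), and that 1 became 6 with 2 surrogate variables and 0 without LKO EV replicate 4. None of 7 sirtuins had an unadjusted p under 0.05. Sirt3, the mitochondrial deacetylase, gave -0.21 ± 0.13 and Sirt7 -0.25 ± 0.12.

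Fgf21 was at 4.33, 7.6, 6.02, 6.43 and 8.24 CPM with NAMPT and 11, 7.87, 7.42, 6.42 and 3.50 CPM with EV. The highest and the lowest of the 10 were both EV libraries (exact permutation difference of -0.09, p = 0.778, 0.778 after adjustment). In limma the LKO value was 0.02 ± 0.47 and the WT value 1.44 ± 0.52 (adjusted p = 0.0647), and the difference between genotypes of -1.41 was not called (adjusted p = 0.247) and was -0.27 with 2 surrogate variables. Of 21 genes of FGF21, its receptors and the integrated stress response, 1 was lower in LKO, Sesn2 (-0.32 ± 0.11, adjusted p = 0.350), a leucine sensor upstream of mTORC1, and the median was -0.11 in LKO and 0.37 in WT liver. The stress-induced factors Ddit3 (-0.29 ± 0.24) and Gdf15 (-0.61 ± 0.45) overlapped between vectors, and 5 of 21 members had a difference between genotypes below 0 at an unadjusted p under 0.05, against 10.2% of all genes (3 of 21 with 2 surrogate variables).

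**Figure D3:**
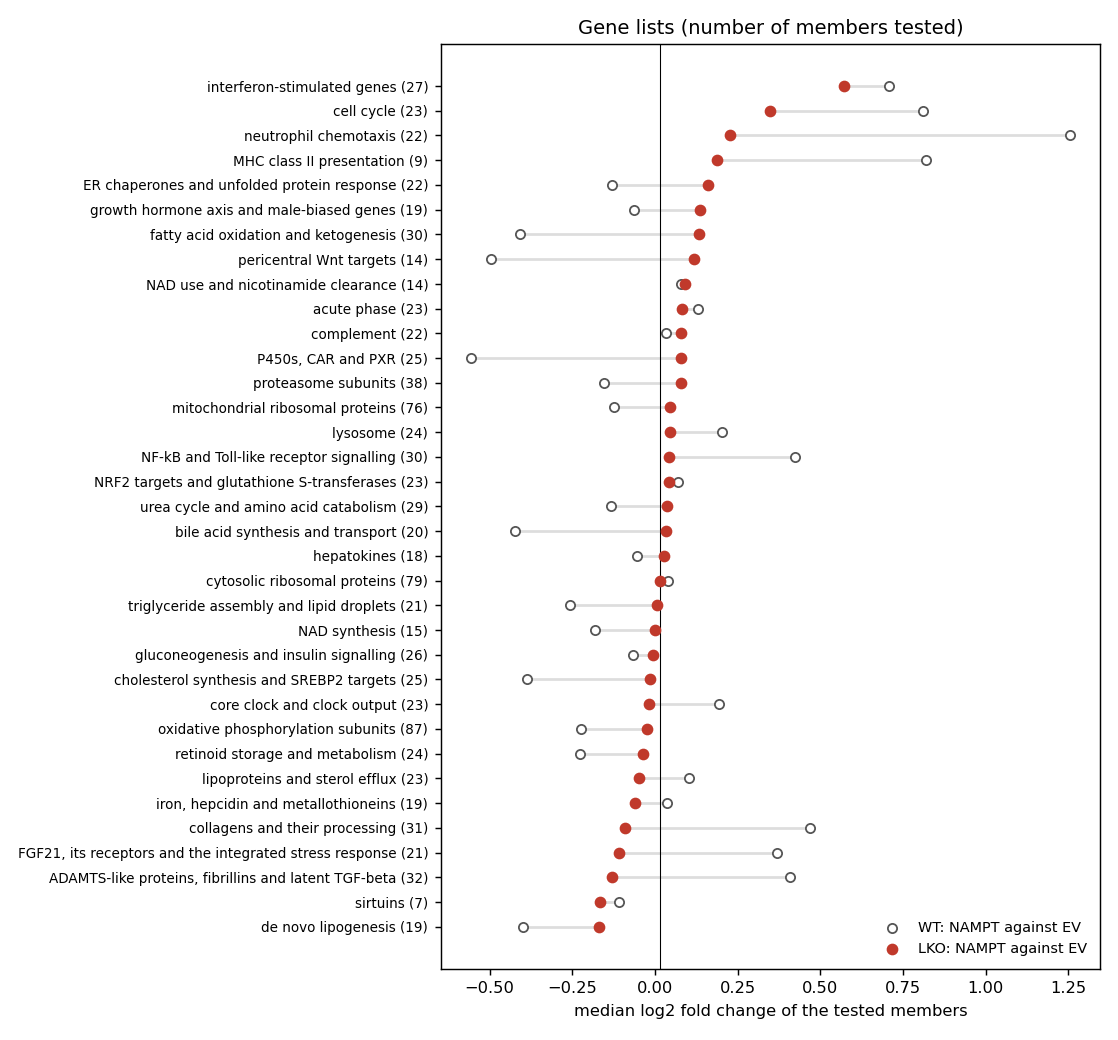
Median log2 fold change of NAMPT against EV (x axis) over the tested members of 35 gene lists, in LKO (red) and WT (open) liver, with the number of members in parentheses and the LKO median of all genes as a vertical line. Interferon-stimulated genes stand highest in LKO, at 0.57, and NAD synthesis lies at 0.00; the fatty acid oxidation list is at 0.13 in LKO and -0.41 in WT.

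No fatty acid oxidation gene was called in LKO liver. Of 30 tested genes of oxidation and ketogenesis 3 were higher and 0 lower in LKO at an unadjusted p under 0.05, against 4.37% and 5.27% of all genes, and 24 had a positive log2 fold change (median 0.13, against -0.41 in WT). The 3 became 1 without LKO EV replicate 1 and 6 without LKO EV replicate 4, and the median became 0.043 without LKO EV replicate 2. Hadhb, a subunit of the mitochondrial trifunctional protein, was at 141, 165, 207, 138 and 171 CPM with NAMPT and 114, 125, 146, 161 and 125 CPM with EV (0.27 ± 0.10, adjusted p = 0.398). Acadm, the medium-chain acyl-CoA dehydrogenase, was at 334 to 442 and 260 to 351 CPM (0.27 ± 0.11, adjusted p = 0.417), and Ehhadh, the peroxisomal bifunctional enzyme, at 482 to 587 and 330 to 512 CPM (0.32 ± 0.15, adjusted p = 0.502). In WT liver each of these 3 fell, by 0.39, 0.43 and 0.56 on the log2 scale (adjusted p = 0.0160, 0.0140 and 0.0144). The differences between genotypes were 0.66, 0.70 and 0.88, and none was called (adjusted p = 0.0582, 0.0576 and 0.0653). All 3 were called without LKO NAMPT replicate 1 (adjusted p = 0.0221, 0.0236 and 0.0298), Hadhb and Acadm without LKO EV replicate 4 (0.0442 each) and Ehhadh without LKO EV replicate 3 (0.0474), and DESeq2 called Acadm and Ehhadh (0.00268 and 0.00326). Over the list 15 of 30 differences were above 0 at an unadjusted p under 0.05 and 0 below, against 11.1% and 10.2% of all genes. The 15 became 12 to 23 under the alternatives. Such differences above 0, with 0 below, were not particular to this list. They numbered 7 of 14 pericentral Wnt targets, 8 of 20 bile acid genes and 9 of 22 chaperones of the endoplasmic reticulum. Proteasome subunits had 15 of 38 and oxidative phosphorylation subunits 27 of 87. At the lowest these became 2, 3, 1, 6 and 10 under the alternatives. Cyp4a10 and Cyp4a14, PPARalpha-driven fatty acid hydroxylases chosen after their values were seen, gave 0.72 ± 0.37 and 1.19 ± 0.59 in LKO, -1.92 and -1.54 in WT, and differences of 2.64 (adjusted p = 0.0564) and 2.73 (adjusted p = 0.0872).

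No lipogenic gene was called in LKO liver. Of 19 members of de novo lipogenesis 1 was lower at an unadjusted p under 0.05, Mlxipl, the carbohydrate-responsive factor ChREBP (276 ± 27.8 to 222 ± 24.1 CPM, -0.33 ± 0.13, adjusted p = 0.430), and 17 had a negative value (median -0.17, and -0.024 without LKO EV replicate 2). Pklr, the liver pyruvate kinase and a ChREBP target, was at 248 to 366 CPM with NAMPT and 354 to 558 CPM with EV (-0.43 ± 0.25, adjusted p = 0.610). Fasn (-0.24 ± 0.35), Acaca (-0.18 ± 0.21), Scd1 (-0.04 ± 0.24), Elovl6 (-0.04 ± 0.29) and Gpam (0.05 ± 0.25) all overlapped, and the sign of Fasn, Scd1, Elovl6 and Gpam turned under some alternatives. LKO NAMPT replicate 3 held the most Fasn of its group, at 2713 CPM against 1794 to 2053 CPM in the other 4.

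Lpin1, the phosphatidate phosphatase of triglyceride synthesis and a coactivator of PPARalpha, was at 85.4, 59.2, 227, 88.4 and 62.9 CPM with NAMPT and 156, 166, 208, 268 and 154 CPM with EV. LKO NAMPT replicate 3 lay inside the EV range and the other 4 below it (-1.28 ± 0.35, adjusted p = 0.194). Plin5, a lipid droplet protein, was at 31.1 to 51.2 and 44.0 to 56.3 CPM (-0.42 ± 0.15, adjusted p = 0.345). Its value was -0.54 to -0.22 with 1 LKO library left out. Over the triglyceride and droplet list 0 of 21 were higher and 2 lower, against 4.37% and 5.27% of all genes. Lpl, lipoprotein lipase, was at 149, 40.1, 53.5, 65.1 and 76.9 CPM with NAMPT and 41.9, 29.9, 41.4, 17.3 and 25 CPM with EV (1.0 ± 0.31, adjusted p = 0.277), and was called in WT liver (1.44 ± 0.30, adjusted p = 0.00922). Only LKO NAMPT replicate 2 lay within the EV range, and Lpl was the 1 of 23 lipoprotein and sterol efflux genes with an unadjusted p under 0.05. Srebf2, the factor SREBP2, gave -0.24 ± 0.09 (adjusted p = 0.365) and was the 1 of 25 cholesterol synthesis genes with such a p.

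No interferon-stimulated gene was called, and 1 library lay far above the rest. Of 27 tested members 9 were higher and 0 lower at an unadjusted p under 0.05 (4.37% and 5.27% of all genes), all 27 had a positive log2 fold change, and the median was 0.57 in LKO and 0.71 in WT liver. LKO NAMPT replicate 4 held a summed 1738 CPM of these genes, against 683 to 882 CPM in the other NAMPT libraries and 608 to 709 CPM with EV. Without it the 9 became 4 and the median 0.33. Iigp1, an interferon-inducible GTPase, was at 211, 202, 261, 560 and 217 CPM with NAMPT and 148, 154, 158, 193 and 149 CPM with EV, with no overlap (0.72 ± 0.21, adjusted p = 0.234, and 0.42 without LKO NAMPT replicate 4). Gbp7, a guanylate-binding protein, likewise did not overlap, at 24.6, 28.5, 22.7, 62.1 and 24.4 against 20.0, 18.1, 19.8, 21.7 and 17.9 CPM (0.67 ± 0.23, adjusted p = 0.328). Irgm1 was at 146 CPM in LKO NAMPT replicate 4 and 40.3 to 57.6 CPM in the other 4 (0.64 ± 0.22, and 0.33 without replicate 4). Ifi47, another GTPase of this family, gave 0.95 ± 0.28 (adjusted p = 0.242) although LKO NAMPT replicate 3 was below every EV library.

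BC023105, a transcript on chromosome 18 near Iigp1, was at 131 CPM in LKO NAMPT replicate 4, 3.84 to 10.1 CPM in the other NAMPT libraries and 2.04 to 3.34 CPM with EV (1.98 ± 0.80, adjusted p = 0.419). Psmb9, an interferon-induced proteasome subunit, was at 42.0 CPM in the same library and 10.9 to 18.6 CPM in the other 4. MHC class II genes gave positive values in 9 of 9 (median 0.19) with 0 at an unadjusted p under 0.05, and 4 with 2 surrogate variables. Their summed level was 740 CPM in LKO NAMPT replicate 1 and 191 to 426 CPM in the other 4, and the median was 0.035 without that library and 0.49 without LKO NAMPT replicate 2. Kupffer cell markers summed to 396 to 860 CPM with NAMPT and 437 to 542 CPM with EV, recruited macrophage markers to 105 to 344 and 87.9 to 215 CPM, and T or NK cell markers to 4.01 to 5.97 and 3.52 to 6.92 CPM. In none of these lists did a marker have an unadjusted p under 0.05, the highest macrophage sum was in LKO NAMPT replicate 1, and the part of immune cells in the interferon values was not tested.

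**Figure D4:**
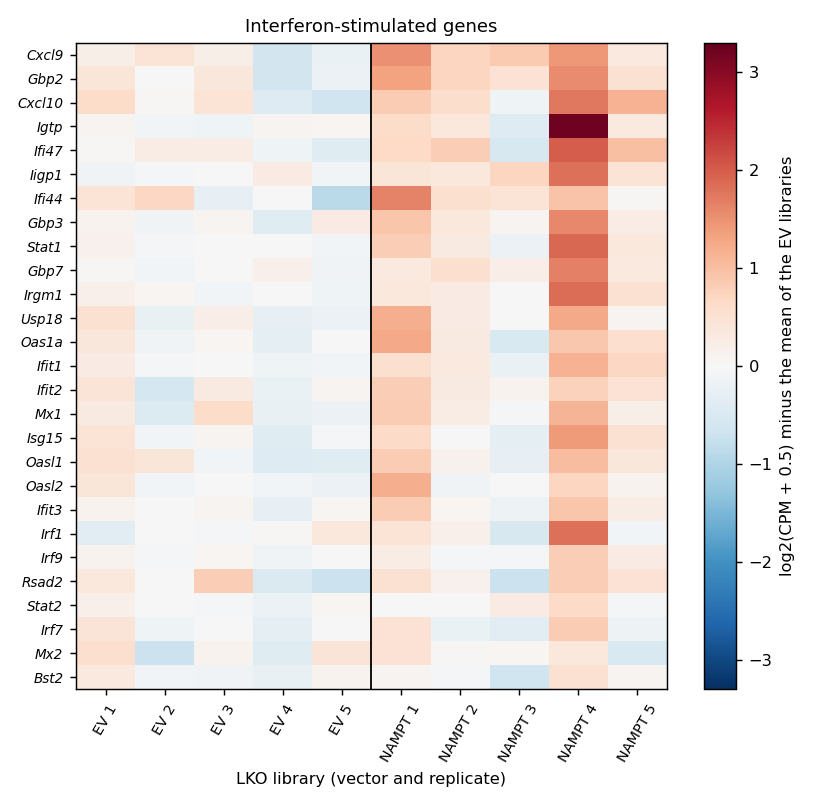
Rows are the 27 interferon-stimulated genes and columns the 10 LKO libraries, with colour giving log2(CPM + 0.5) minus the mean of the EV libraries. LKO NAMPT replicate 4 is the reddest column, with Igtp at 175 CPM against 13.6 to 28.4 CPM in the other NAMPT libraries.

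Other inflammatory lists held few genes. Among 30 NF-kB and Toll-like receptor genes, Tlr4, the lipopolysaccharide receptor, was above every EV library (5.62 to 8.90 against 3.3 to 5.39 CPM, 0.47 ± 0.23, adjusted p = 0.518) and Ticam1, its adaptor TRIF, was lower (-0.20 ± 0.10, adjusted p = 0.517). That list's median was 0.04 in LKO and 0.43 in WT. Of its differences between genotypes 10 of 30 were below 0 at an unadjusted p under 0.05, against 10.2% of all genes. The 10 became 4 with 2 surrogate variables and 15 with library size alone. No gene of neutrophil chemotaxis (22 tested, median 0.23, which was 0.073 without LKO NAMPT replicate 1 and 0.40 without LKO NAMPT replicate 2) had an unadjusted p under 0.05, while the WT median was 1.26 and 11 of 22 differences between genotypes were below 0 at that p, against 10.2% of all genes. Without sample quality weights the 11 became 2. Neutrophil markers were near the filter in LKO liver, with a summed 4.62 to 18.4 CPM with NAMPT and 3.21 to 8.54 CPM with EV. C9, of the terminal complement complex, was above every EV library (301 to 394 against 195 to 294 CPM, 0.55 ± 0.17, adjusted p = 0.246), and C6, its partner, gave 0.53 ± 0.22 (adjusted p = 0.423). In WT liver C9 gave 0.46 ± 0.16 and C6 0.60 ± 0.22, so the genotypes differed by 0.09 and -0.06. Of 22 complement genes 2 were higher and 0 lower at an unadjusted p under 0.05, against 4.37% and 5.27% of all genes. Il6ra, the interleukin-6 receptor, was lower among 23 acute phase genes (-0.65 ± 0.20, adjusted p = 0.277) and Orm1 higher (0.18 ± 0.09, adjusted p = 0.507).

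Cyp3a11, the main PXR-driven P450 of mouse liver, was at 2233, 1320, 3454, 1548 and 1772 CPM with NAMPT and 923, 1249, 1153, 1199 and 1105 CPM with EV, with no overlap (0.57 ± 0.19, adjusted p = 0.323). It was the 1 of 25 P450, CAR and PXR genes with an unadjusted p under 0.05. The list's median was 0.08 in LKO (-0.036 without LKO NAMPT replicate 2, 0.17 without LKO EV replicate 4) and -0.56 in WT, and 10 of 25 differences between genotypes were above 0 at that p, against 11.1% of all genes (4 of 25 with 2 surrogate variables). The list of growth hormone axis and male-biased genes gave 4 of 19 higher and 0 lower, against 4.37% and 5.27% of all genes. Of the 19, 12 had a positive and 7 a negative log2 fold change, the lowest at -1.35. Without LKO NAMPT replicate 2 the 4 became 0 and the list's median, 0.14, became -0.02. Cyp4a12a was at 90.4 to 326 CPM with NAMPT and 69.1 to 190 CPM with EV (0.79 ± 0.33, adjusted p = 0.438), its near copy Cyp4a12b at 32.1 to 101 and 23.1 to 39.6 CPM (1.05 ± 0.41, adjusted p = 0.403), and Mup20, the pheromone darcin, at 1471 to 2881 and 1139 to 1786 CPM (0.42 ± 0.19, adjusted p = 0.498). Reads of such families can be split between copies.

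Among pericentral Wnt targets 2 of 14 were higher (0 without LKO NAMPT replicate 2), against 4.37% of all genes. These were Lhpp (0.41 ± 0.13, adjusted p = 0.305) and Oat, ornithine aminotransferase (0.44 ± 0.20, adjusted p = 0.502). With 1 LKO library left out Lhpp ran from 0.25 to 0.49 and Oat from 0.13 to 0.59. The list median was 0.12 in LKO (0.038 without LKO NAMPT replicate 2) and -0.50 in WT. Oat fell in WT liver by 0.63 on the log2 scale (adjusted p = 0.0321), and the genotypes differed by 1.07 (adjusted p = 0.0745). In LKO its spread was wide, at 485 to 1472 CPM with NAMPT and 647 to 914 CPM with EV. Tat, tyrosine aminotransferase, was lower (-0.51 ± 0.20, adjusted p = 0.419), so that the urea cycle and amino acid list had 1 of 29 higher and 1 lower. The bile acid list had 1 of 20 higher, Amacr (0.26 ± 0.11), and the gluconeogenesis and insulin list 0 of 26 in either direction. The NRF2 list had 2 of 23 higher, against 4.37% of all genes, Txnrd1 (0.25 ± 0.10) and Gclm (0.19 ± 0.09). Leaving out 1 LKO library gave 0.20 to 0.30 for Txnrd1 and 0.10 to 0.24 for Gclm. Of 24 retinoid genes Aldh1a7 was higher (0.22 ± 0.10) and Ttr, the thyroxine and retinol carrier, was below every EV library (3725 to 5627 against 5719 to 6722 CPM, -0.26 ± 0.12, adjusted p = 0.507). Hgfac, the activator of hepatocyte growth factor, was also below every EV library (159 to 185 against 188 to 244 CPM, -0.27 ± 0.12, adjusted p = 0.461), and in the hepatokine list 1 of 18 was higher and 2, Hgfac and Smoc1 (-0.21 ± 0.07), lower.

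Chaperones of the endoplasmic reticulum gave 3 of 22 higher and 1 lower, against 4.37% and 5.27% of all genes, with 19 positive values and a median of 0.16 (0.052 without LKO NAMPT replicate 5). Hsp90b1 was at 243, 342, 457, 342 and 433 CPM with NAMPT and 257, 280, 297, 303 and 277 CPM with EV, with LKO NAMPT replicate 1 the lowest of all 10 (0.33 ± 0.11, adjusted p = 0.305). Pdia3 and Dnajc3 were likewise lowest in LKO NAMPT replicate 1 (0.24 ± 0.10 and 0.23 ± 0.10), and Herpud1, of the degradation arm, was lower (-0.38 ± 0.19). The 3 became 0 without LKO NAMPT replicate 5 and 10 without LKO NAMPT replicate 1. Among 38 proteasome subunits 2 were higher, Psmd14 (0.24 ± 0.09) and Psmb9 (0.51 ± 0.23), against 4.37% of all genes. With 1 LKO library left out Psmd14 ran from 0.12 to 0.31 and Psmb9 from 0.26 to 0.74. Among 76 mitochondrial ribosomal proteins 5 were higher and 0 lower, against the same 4.37%. Among 79 cytosolic ribosomal proteins 4 were higher and 0 lower, against the same 4.37%. Without LKO NAMPT replicate 2 the 5 became 0 and the 4 became 1, and without LKO NAMPT replicate 1 the 2 proteasome subunits became 8. With 2 surrogate variables 12 proteasome subunits and 13 mitochondrial ribosomal proteins were higher. Over all genes the number higher, 614, moved as well. It became 354 without LKO NAMPT replicate 2, 420 without replicate 5, 843 without replicate 1 and 805 with 2 surrogate variables. Of 87 subunits of oxidative phosphorylation 0 were higher and 2 lower, Ndufa6 (-0.31 ± 0.13) and Cox6a1 (-0.27 ± 0.13), both lowest in LKO NAMPT replicate 3, the library with the most mitochondrial counts, and with 2 surrogate variables 9 were higher and 0 lower. The lysosome list had 2 of 24 higher, with Gla, alpha-galactosidase, above every EV library (4.83 to 5.96 against 3.67 to 4.72 CPM, 0.34 ± 0.13, adjusted p = 0.397), and the gene was called in WT liver (0.65 ± 0.12, adjusted p = 0.00677). Of 23 cell cycle genes 21 had a positive value (median 0.35, WT 0.81) and 1, Mcm4 (0.49 ± 0.21), an unadjusted p under 0.05. That median was 0.09 without LKO NAMPT replicate 2 and -0.02 with 2 surrogate variables.

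No clock gene was called, and Dbp and Arntl varied widely within each vector group. Dbp, the clock output factor, was at 59.2, 63.9, 47.7, 27.8 and 21.8 CPM with NAMPT and at 11.4, 15.5, 42.8, 53.9 and 62.1 CPM with EV, so LKO NAMPT replicates 4 and 5 and LKO EV replicates 1 and 2 were low and the other 6 high. Arntl, which encodes the clock activator BMAL1 and peaks at the opposite phase, was high where Dbp was low, at 1.81, 2.01, 4.01, 6.51 and 8.48 CPM with NAMPT and 13.4, 13.7, 5.78, 5.03 and 3.87 CPM with EV (-0.98 ± 0.45, adjusted p = 0.498). The Arntl value ran from -1.31 to -0.46 with 1 LKO library left out. Usp2 and Per3 followed Dbp, with Usp2 at 5.92 to 6.76 CPM in those 4 libraries and 20.2 to 54.3 CPM in the other 6. Per1 did not follow Dbp (41.0, 17.4, 36.1, 16.5 and 12.3 against 24.3, 34.7, 38.3, 37.6 and 43.5 CPM, -0.95 ± 0.27, adjusted p = 0.237). Over the list 0 of 23 were higher and 2, Per1 and Arntl, lower. Dbp, Usp2 and Per3 were chosen after their values were seen. The labels used here give no hour of collection, and the part of the hour in any other value was not tested.

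**Figure D5:**
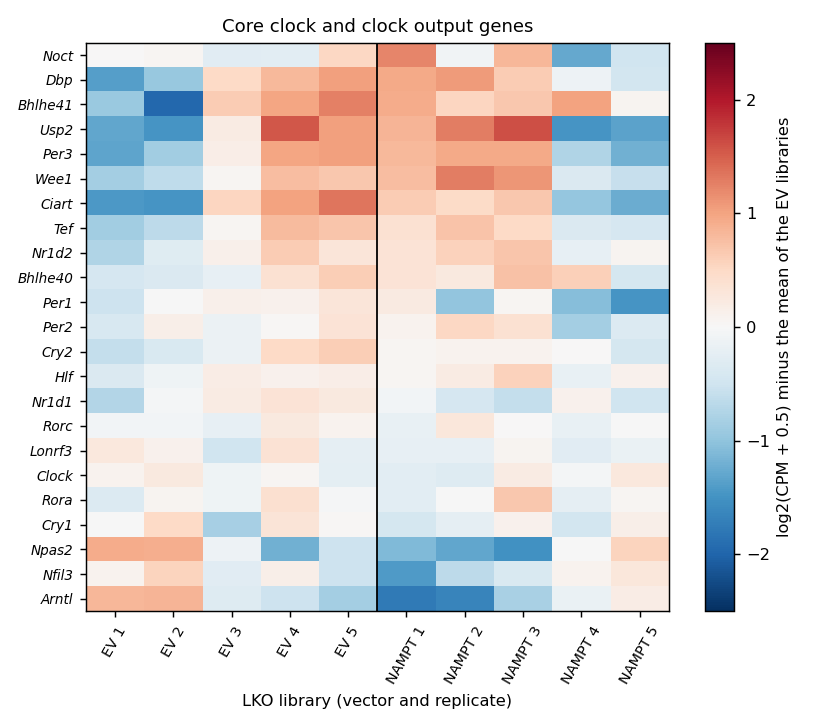
Rows are the 23 core clock and clock output genes and columns the 10 LKO libraries, coloured by log2(CPM + 0.5) minus the mean of the EV libraries. LKO EV replicates 1 and 2 and LKO NAMPT replicates 4 and 5 share low Dbp, Usp2 and Per3 and high Arntl and Npas2, in both vector groups.

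Markers of the remaining cell types were read the same way. Of 6 B or plasma cell markers 1, Cd79a, was higher and 1, Ighm, lower (8.13 to 56.2 against 28.3 to 141 CPM, -1.19 ± 0.50), with 0.65 ± 0.27 for Cd79a. Among red blood cell markers 0 of 7 had an unadjusted p under 0.05, and their sum was 667 to 1578 CPM with NAMPT and 874 to 2096 CPM with EV. Of 10 hepatocyte markers 2 were lower, Tat and Ttr. Only 2 adipocyte markers passed the filter, with Adipoq, Plin1, Lep and Retn below it, and neither had an unadjusted p under 0.05.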

How the data were processed

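Liver RNA from 25 mice was sequenced by the authors as poly-A selected, single-end 50-base reads. The deposited gene tables hold raw counts, with CPM and RPKM columns that the authors derived from those counts, and only the counts entered tests. The submitters' processing notes name STAR 2.5.1a, featureCounts 1.4.6-p5 and GRCm38, and the study's methods name Ensembl release 76. Whether counting used strand is not given in the sources used here, so reads of overlapping and antisense genes cannot be told apart. The aligner and counter settings were not changed here, and near-identical copies may share or lose reads.

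From the counts, 14065 of 41388 genes with over 1 CPM in at least 2 libraries were kept after removal of 4 rRNA genes. They were scaled by TMM (edgeR 4.0.16) and fitted with limma 3.58.1 (R 4.3.3), using voom with sample quality weights and 1 mean per group over all 25 libraries, which share 1 estimate of the spread. P-values were adjusted by Benjamini-Hochberg over all 14065 genes. The difference between genotypes is the NAMPT effect in LKO minus that in WT. Sirt1, Nampt and Fgf21 were also tested alone by an exact permutation test over the 10 libraries, on log2(CPM + 0.5). Nothing in the labels says how the mice relate beyond group, so p-values measure the spread between these libraries. The scripts were tested on simulated data.

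Named genes were those called, the 12 higher and 12 lower non-overlapping genes with the smallest p and an average log2 CPM of at least 1, 9 genes of NAD+ and lipid biology, up to 4 members of each of 35 gene lists with an unadjusted p under 0.05, and genes called by DESeq2 1.42.0 or edgeR. Other members named with values were chosen after their values were seen. Some genes that the rule takes are not reported here. The comparison, lists and tests were chosen with earlier results of these data known. Each list's counts are to be read against the shares of all genes, and no set test was run.

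Replicate numbers recur in both groups but were not treated as pairs. Alternatives were 2 surrogate variables (sva 3.50.0), other scalings, filters and tools, a replicate block and each LKO library left out in turn. No WT library was left out. How far the WT values and the differences between genotypes rest on single WT libraries was therefore not tested. Motifs were searched in RefSeq upstream windows.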

Additional observations from a re-analysis of the deposited data

Results flagged for a closer look

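Within the 2 groups of 5, 292 sets of 5 values (named genes and summed lists) were examined for a library far from the other 4, and 24 (8.22%) had one, where chance gives about 1 in 20. The other result here is Adamtsl2, whose NAMPT effect differed between LKO and WT liver by -1.90 on the log2 scale, a difference not called with 2 surrogate variables (-1.56, adjusted p = 0.0549), by edgeR's quasi-likelihood test (-1.58, adjusted p = 0.218) or without quality weights (-1.64, adjusted p = 0.133).

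LKO NAMPT replicate 4 stood highest in its group for Iigp1 (560 CPM, others 202 to 261), Gbp7 (62.1, others 22.7 to 28.5), Irgm1 (146, others 40.3 to 57.6), Psmb9 (42.0, others 10.9 to 18.6), BC023105 (131, others 3.84 to 10.1) and the summed interferon-stimulated genes (1738, others 683 to 882), and also for the summed ADAMTS-like, fibrillin and latent TGF-beta list (2350.2, others 2123 to 2180). Among EV libraries, replicate 4 was highest for Iigp1 (193 CPM) and replicate 1 for the summed interferon-stimulated genes (709 CPM, others 608 to 636).

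LKO NAMPT replicate 3, with the largest mitochondrial share, stood highest for Fasn (2713 CPM), Lpin1 (227) and Rps3a1 (191). LKO NAMPT replicate 1 stood apart in 3 summed lists, lowest for mitochondrial ribosomal proteins (1871 CPM) and proteasome subunits (2355 CPM) and highest for recruited macrophage markers (344 CPM, others 105 to 173). LKO NAMPT replicate 2 was highest for summed B or plasma cell markers (61.5 CPM), and LKO NAMPT replicate 5 was lowest for Aldh1a7 (310.1 CPM).

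LKO EV replicate 1 was highest for C6 (110.4 CPM) and Tfrc (31.4 CPM) and lowest for Mrpl47 (4.83 CPM) and summed stellate cell markers (545 CPM). LKO EV replicate 2 was highest for Tat (1057 CPM), LKO EV replicate 4 for Gclm (212 CPM) and LKO EV replicate 5 for summed proteasome subunits (2807 CPM).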

How the results depend on the processing

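Each value was recomputed under 23 alternatives, 10 of which leave out 1 LKO library. Of 97 named genes, 92 kept their sign under every alternative run. The number of genes called, 1 with all libraries, was 0 with 2 surrogate variables, edgeR's quasi-likelihood test, no filter, no quality weights or only the 10 LKO libraries, 6 with DESeq2 and 3 with edgeR's exact test, and ran from 0 to 5 when single libraries were left out. With a replicate block it was 0, the Adamtsl2 value was -1.24 (adjusted p = 0.181), and the difference between genotypes was called in 66 genes, among them Hadhb (adjusted p = 0.0222), Acadm (0.0176) and Ehhadh (0.00226). The deviations of same-numbered LKO libraries from their group means correlated at 0.31, -0.028, -0.0071, -0.19 and -0.11, and 1 of 5 NAMPT libraries correlated best with its own number, so the numbers give no pairing. The 1 gene called for the difference between genotypes became 0 with 2 surrogate variables, edgeR's quasi-likelihood test or no quality weights, 3 with library size alone or without LKO EV replicate 2, 4 with no filter, 2 without LKO NAMPT replicate 4, 676 without LKO NAMPT replicate 1, 33 without LKO EV replicate 4 and 19 without LKO EV replicate 3 or with DESeq2. Genes with an unadjusted p under 0.05 numbered 1355, against 852 with edgeR's exact test, 2111 with no filter and 877 with no quality weights. The cause of these shifts was not tested.
Leaving out single libraries, genes with an unadjusted p under 0.05 numbered 792 (without LKO NAMPT replicate 2) to 1760 (without LKO NAMPT replicate 4), and non-overlapping genes 221 (without LKO EV replicate 5) to 457 (without LKO NAMPT replicate 1) against 162, as fewer libraries make overlap rarer.

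Signs turned for 5 named genes in LKO, all of them lipogenic genes or Fgf21. The LKO value of Fgf21, 0.02, was -0.54 with 2 surrogate variables, -0.16 with DESeq2, -0.15 with both edgeR tests, -0.088 without quality weights, -0.056 with the replicate block, -0.0023 with upper-quartile scaling and -0.18 to 0.16 with a library left out, and its exact permutation difference was -0.31 to 0.073. Elovl6 was 0.019 with DESeq2, 0.029 with both edgeR tests, 0.031 with no filter, 0.036 without quality weights and -0.21 to 0.19 with a library left out. Scd1 was 0.029 with DESeq2, 0.038 with both edgeR tests or without quality weights, 0.036 with the block, 0.0018 with no filter and -0.12 to 0.049 with a library left out. With a library left out, Fasn was -0.38 to 0.032 and Gpam -0.011 to 0.18. The difference between genotypes of Fgf21, -1.41, was -0.27 with 2 surrogate variables and -0.35 with the block. That of Nras was -0.026 with DESeq2, -0.019 with the quasi-likelihood test, -0.064 with library size alone, -0.0040 without quality weights, -0.00052 with upper-quartile scaling and -0.0048 to 0.13 with a library left out. Scaled by library size alone, it was -0.043 for Zbtb14, -0.011 for Vwa5a and -0.091 for Nampt. With 2 surrogate variables it was 0.094 for Irf2bp2 and -0.023 for Nampt, which ran from -0.044 to 0.18 with a library left out.

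Depth limits the genes near the filter, such as Ltbp2 and the cholangiocyte markers, whose levels of about 1 CPM rest on few counts.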
